A study of Mus musculus with 20 samples.

Results

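The endoplasmic reticulum (ER) chaperones and the unfolded protein response were followed as 33 genes chosen by symbol, out of 21768 genes in the deposited table of mouse liver RNA. They comprise 16 chaperones and folding enzymes, 10 signalling genes and 7 genes of ER-associated degradation, and every one was found in the table under its own symbol. Each gene was represented by the RefSeq transcript with the highest count over the 10 libraries used. This choice of transcript did not use any difference between groups. The genes and their classes were chosen with earlier results of these data known.

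The mice were labelled WT in every group. The exposed groups received CdCl2 at 100 mg/L in drinking water, and their livers were taken at 3 months (3 libraries) and at 9 months (3 libraries). The control groups gave 2 libraries at 3 months and 2 at 9 months. All 10 are input libraries of total RNA from a study of m6A, an RNA methylation mark, in 20 libraries; the other 10 were not analysed here. Strain, sex and age at the start are not given in the labels, which also do not say whether each library came from its own animal, so the p-values measure only the spread between these libraries. Liver is a mixture of cell types, and fewer cells of a type cannot be told apart from less RNA per cell.

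Secreted and membrane proteins fold in the ER with the help of chaperones such as Hspa5 (BiP), of lectins that hold glycoproteins, and of disulfide isomerases. When unfolded proteins build up, 3 membrane sensors respond: IRE1 (gene Ern1) splices Xbp1 mRNA, PERK (Eif2ak3) phosphorylates eIF2α and so favours translation of Atf4, and ATF6 is cut to release a transcription factor. XBP1 and ATF6 raise chaperone and degradation genes, and ATF4 raises genes such as Ddit3, Trib3, Asns and Chac1. Hepatocytes secrete most plasma proteins and keep a large ER.

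Counts per library, after taking 1 transcript per gene, totalled 3958164 to 8912898. Markers of hepatocytes were abundant in every library, with Alb (albumin) at 30560.0 to 68210.0 CPM (counts per 1000000 of the TMM-scaled library). The 3-month controls stood apart from the rest, with median correlations of 0.809 and 0.827 with the other libraries over 9051 genes, against 0.898 to 0.933 for the other 8. A list of 17 genes of pancreatic acinar cells was also read, since liver should lack them. Their summed level reached 2050 CPM in one exposed library, 9-month liver 1. Among controls it reached 10500 CPM in 9-month control 2, where all 17 were detected, and 274 CPM in 3-month control 3. It lay between 8.7 and 33.7 CPM in the remaining 7 libraries. Acinar cells are rich in ER, and the part of this RNA in the results below was not tested except where values without those libraries are given.

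Per transcript length, in the authors' TPM, the most abundant of the 33 was P4hb (a protein disulfide isomerase), at a mean level of 405.7 TPM over the 10 libraries. Xbp1 followed at 245 TPM, Hsp90b1 (GRP94, the ER form of HSP90) at 243 TPM, Herpud1 (a degradation adaptor) at 151 TPM and Hspa5 at 142 TPM. Calr (calreticulin) averaged 93.9 TPM and Canx (calnexin) 66.5 TPM. At the low end stood targets of ATF4, with Trib3 at 2.99, Asns at 1.66, Ddit3 (CHOP) at 1.45, Ppp1r15a (GADD34) at 0.96 and Chac1 at 0.68 TPM. The mRNAs of the sensors were also low, with Atf6 at 7.39, Ern1 at 6.57 and Eif2ak3 at 4.59 TPM. Low levels were not particular to these genes. The degradation gene Derl3 was at 2.58 TPM, and the chaperones Sdf2l1, Manf and Creld2 were at 3.48, 4.20 and 4.21 TPM. All 33 passed the filter on low counts and were tested among 14067 genes.

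Sequences upstream of the start site that some of the chaperones share are shown because they are known elements of this response. The ER stress response element (ERSE), searched as CCAAT and CCACG with 9 bases of any kind between them, on both strands, from 250 bases before to 50 after the annotated start, is bound by NF-Y and ATF6. It was found for 9 of the 29 members with a promoter in the RefSeq table (GRCm38.p6), against 39 of 32851 promoters of the same 300 bases (0.119%). Those promoters include the ones of the members. Members and element were both chosen as known parts of this response, and the shares were not tested. Of these 9, 7 were chaperones (Hspa5, Hsp90b1, Calr, Canx, Pdia6, Creld2 and Dnajc3, out of 14 with a promoter), 0 of 9 were signalling genes, and 2 of 6 were degradation genes (Syvn1 and Derl3). The second form, ERSE-II, searched as ATTGG and CCACG with 1 base between them, was found for Herpud1 and Dnajb11 and in 0.0365% of all promoters. In the stretches below, printed 5′ to 3′ on the gene's strand, capitals mark the fixed bases of the element, which read in reverse complement in Calr and in the second element of Hsp90b1.
Hspa5, chr2:34772015-34772053, plus strand: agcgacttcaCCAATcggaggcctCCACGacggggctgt
Hsp90b1, chr10:86705523-86705666, minus strand: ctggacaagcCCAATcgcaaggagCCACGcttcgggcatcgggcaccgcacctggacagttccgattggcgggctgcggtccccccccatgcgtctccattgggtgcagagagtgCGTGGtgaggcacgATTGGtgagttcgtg
Pdia6, chr12:17266481-17266519, plus strand: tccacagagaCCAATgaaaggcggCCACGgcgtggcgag
Calr, chr8:84847065-84847103, minus strand: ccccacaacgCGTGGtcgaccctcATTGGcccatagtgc
Dnajc3, chr14:118937817-118937855, plus strand: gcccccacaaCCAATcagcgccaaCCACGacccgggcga
Herpud1 (ERSE-II), chr8:94386367-94386397, plus strand: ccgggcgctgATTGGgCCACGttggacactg
Hsp90b1 held 2 elements, from -212 to -194 and from -107 to -89 relative to the start. In Hspa5 the element lay from -65 to -47, and in Pdia6 from -98 to -80. The XBP1 element searched as TGACGTGG was found in 0 of the 29 windows and in 0.676% of all promoters. The C/EBP-ATF element that ATF4 binds, searched as TGATGNAA, was found for Asns, Chac1, Trib3 and Herpud1 and in 3.97% of all promoters; none of the letters searched overlap another element in these windows.

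At 3 months the chaperones were mostly lower in exposed livers than in controls, and no single member passed the test. Of the 33 members 0 had an adjusted p under 0.05 (edgeR's quasi-likelihood test with Benjamini-Hochberg adjustment over 14067 genes), against 0.0498% of all genes. With DESeq2 it was 1, Pdia6, in a fit that called 465 of all genes. With limma voom it was 0, against 2 of all genes. Without 3-month control 2 edgeR called 5 members (Asns, Atf6, Hyou1, Pdia6 and Xbp1) and 720 of all genes, and without control 3 it called 0 members and 1247 of all genes, against 7 of all genes with both. Unadjusted, 7 members had p under 0.05, against 14.5% of all genes. Of these members 6 were lower (7.17% of all genes) and 1, Xbp1, was higher (7.35%). Fold changes of 14 of the 16 chaperones were below 0, with a median of -0.38, while 49.3% of all genes were below 0 and their median was 0.01.

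**Figure D1:**
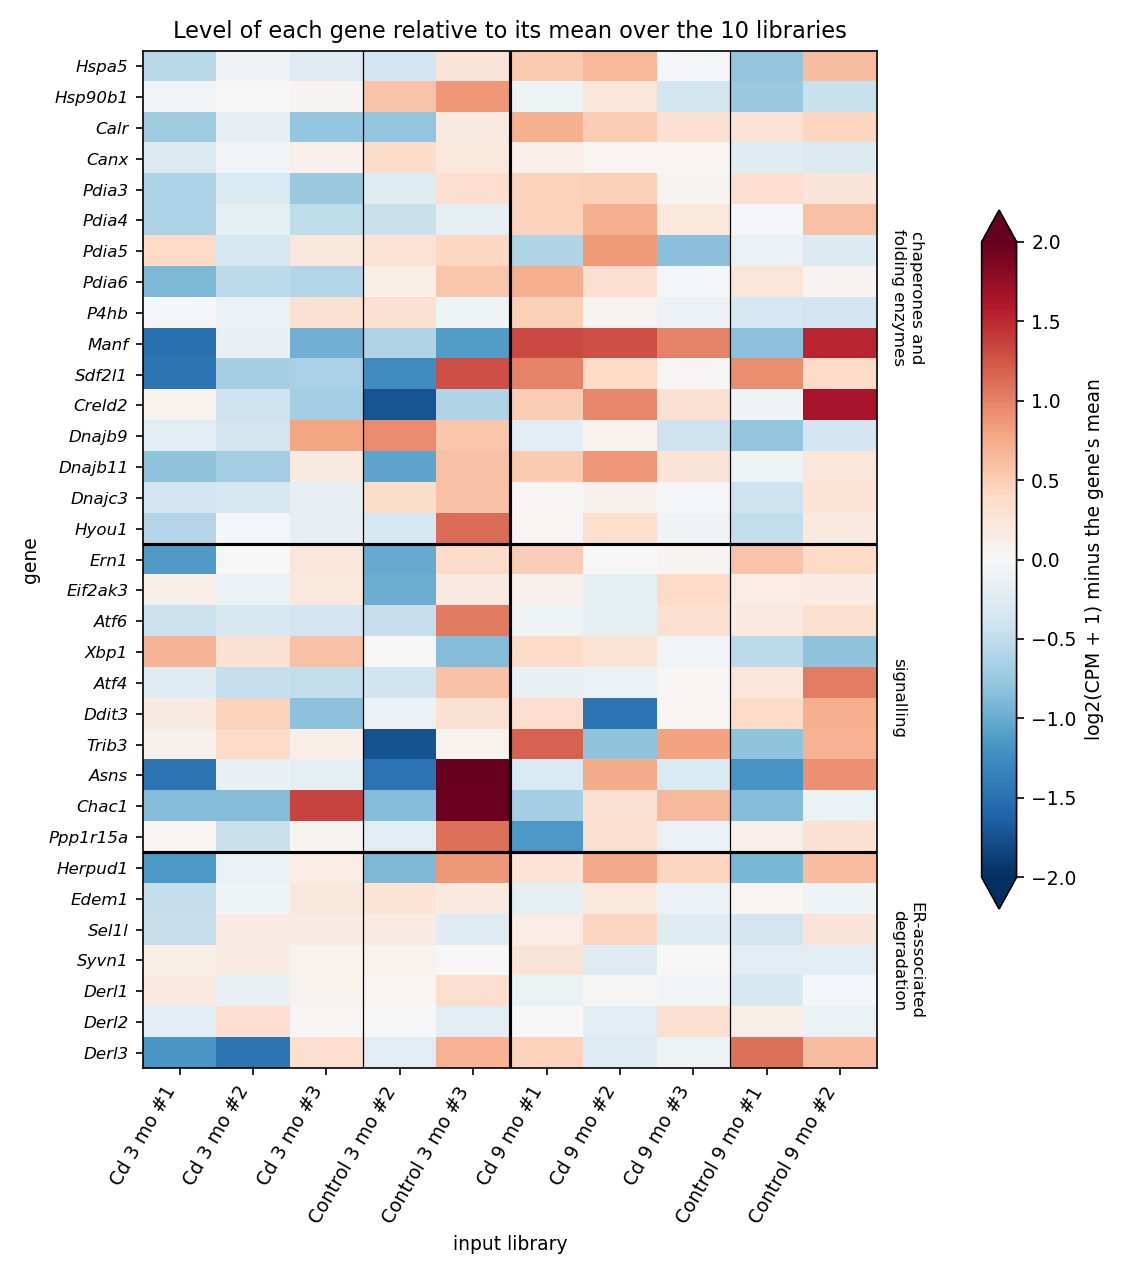
Rows are the 33 genes in 3 blocks (chaperones, signalling, degradation) and columns the 10 input libraries, with exposed (Cd) left of control at each time; colour is log2(CPM + 1) minus the gene's own mean, cut at -2 and 2. Exposed liver 1 at 3 months holds the lowest value of 12 genes, shared with other libraries at 0 CPM in Asns and Chac1. Control 3 at 3 months holds the highest of 10, and all 16 chaperones are above their mean in exposed liver 2 at 9 months.

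Pdia6, a disulfide isomerase, had 64.0, 82.8 and 79.5 CPM in exposed livers at 3 months, against 131 and 177 CPM in controls. The 3 exposed libraries all lay below both controls. The difference was -1.03 ± 0.29 on the log2 scale (SE), 2.04-fold lower, with an adjusted p of 0.146 by edgeR. DESeq2 gave an adjusted p of 0.0324, in the fit that called 465 of all genes. Over all alternatives the fold change kept its sign.

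Dnajc3 (P58IPK), an ER co-chaperone of BiP, had 149.8, 153 and 176 CPM in exposed livers, against 252 and 296 CPM in controls, again without overlap. Its fold change was -0.78 ± 0.27 (edgeR, adjusted p = 0.232). Hsp90b1 had 788, 810.5 and 851 CPM in exposed livers, against 1211 and 1488 CPM in controls. Exposed livers were close to each other and all below the controls, at a fold change of -0.73 ± 0.27 (edgeR, adjusted p = 0.259).

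Canx and Pdia3, which work together on glycoproteins, completed the 5 chaperones whose exposed libraries all lay below the controls; 11.9% of all genes did so. Canx had 292, 344 and 382 CPM in exposed livers, against 461 and 413 CPM in controls. Pdia3 had 90.3, 112 and 82.3 CPM in exposed livers, against 117 and 176 CPM in controls, so that its groups were apart by a narrow margin.

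Hspa5, the main ER chaperone, had 307, 427 and 377 CPM in exposed livers at 3 months, against 345 and 537 CPM in controls. The groups overlapped, and the fold change was -0.25 ± 0.38 (edgeR, adjusted p = 0.811). The other chaperones overlapped too. Calr had 131, 192 and 125 CPM in exposed livers, against 124 and 243 CPM in controls, and Hyou1 (GRP170) 99.7, 145 and 134 CPM, against 118 and 326 CPM in controls. In both genes only 3-month control 3 was high. Sdf2l1, an ER-resident partner of BiP and its co-chaperones, had 0.750, 2.05 and 2.09 CPM in exposed livers, against 1.054 and 10.8 CPM in controls, and was likewise high in control 3 alone. Pdia5, another disulfide isomerase, lay between 11.4 and 38.9 CPM over the 10 libraries. Creld2 and Manf, small secreted or ER-resident stress proteins, were the 2 chaperones with a fold change above 0, at 0.93 ± 0.75 and 0.12 ± 0.70.

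The count of lower chaperones rested in part on 3-month control 3. Without that library 7 of 16 chaperones were above 0, against 2 of 16 with it, and the median was -0.17. Without 3-month control 2, 3 of 16 were above 0. Where a single control is left, its spread is taken from the other groups.

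**Figure D2:**
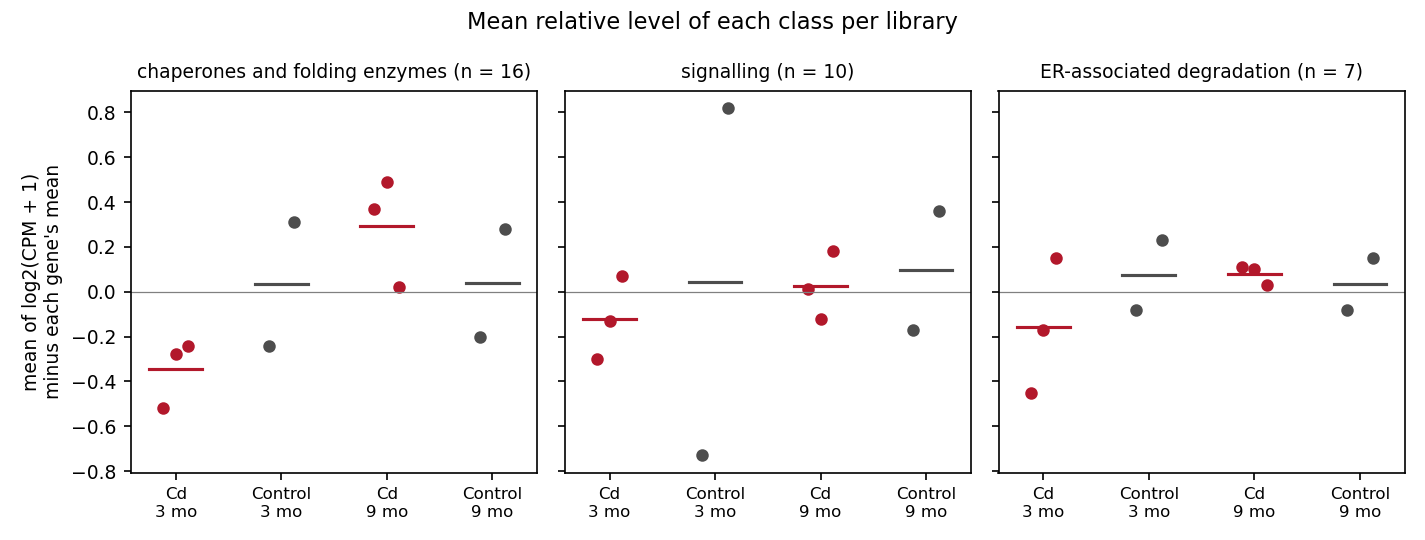
Each point is a library and gives the mean over a class of log2(CPM + 1) minus each gene's mean; lines are group means, with exposed (Cd, red) left of control (grey) at each time. Chaperones sit between -0.52 and -0.24 in exposed livers at 3 months and between 0.02 and 0.49 at 9 months, while the 3-month controls span -0.73 to 0.82 for the signalling genes.

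At 9 months the chaperones leaned the other way, again with no member past the test. Of the 33 members 0 had an adjusted p under 0.05 by edgeR, DESeq2 or limma voom, and 0.0% of all genes did by edgeR. Unadjusted, 2 members had p under 0.05, Xbp1 and Atf4, against 2.25% of all genes. Fold changes of 14 of the 16 chaperones were above 0, with a median of 0.23, while 50.7% of all genes were above 0 and their median was 0.01. In 4 chaperones all exposed libraries lay above both controls, as in 10.3% of all genes.

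These 4 were Hsp90b1, Canx, P4hb and Dnajb11. Hsp90b1 had 763, 964 and 631 CPM in exposed livers at 9 months, against 489 and 599.9 CPM in controls, a fold change of 0.53 ± 0.28 (edgeR, adjusted p = 1). Canx had 382, 368 and 369 CPM in exposed livers, against 304 and 297 CPM in controls, at 0.31 ± 0.25 (edgeR, adjusted p = 1). Spread within each group was small for Canx, and the gap between the groups exceeded it.

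P4hb had 1787, 1330.1 and 1183 CPM in exposed livers, against 1009.8 and 986 CPM in controls, a fold change of 0.52 ± 0.29 (edgeR, adjusted p = 1). Dnajb11, a BiP co-chaperone, had 25.4, 32.5 and 20.9 CPM in exposed livers, against 16.1 and 20.7 CPM in controls. Its groups were apart by the margin between 20.9 and 20.7 CPM. Without 9-month control 1, 10 of 16 chaperones were above 0.

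Hspa5 at 9 months had 644, 711 and 440.2 CPM in exposed livers, against 260.3 and 689 CPM in controls. The 2 controls differed from each other by more than the groups did, and the fold change was 0.33 ± 0.39 (edgeR, adjusted p = 1). Without 9-month control 1 it was -0.19, and without control 2, the library with 10500 CPM of acinar RNA, it was 1.19. Without both libraries richest in acinar RNA it was 1.13.

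Creld2 and Sdf2l1 were the 2 chaperones below 0 at 9 months. Creld2 had 8.63, 12.3 and 7.44 CPM in exposed livers, against 5.53 and 20.3 CPM in controls. Its highest value, and that of Manf, was in 9-month control 2.

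**Figure D3:**
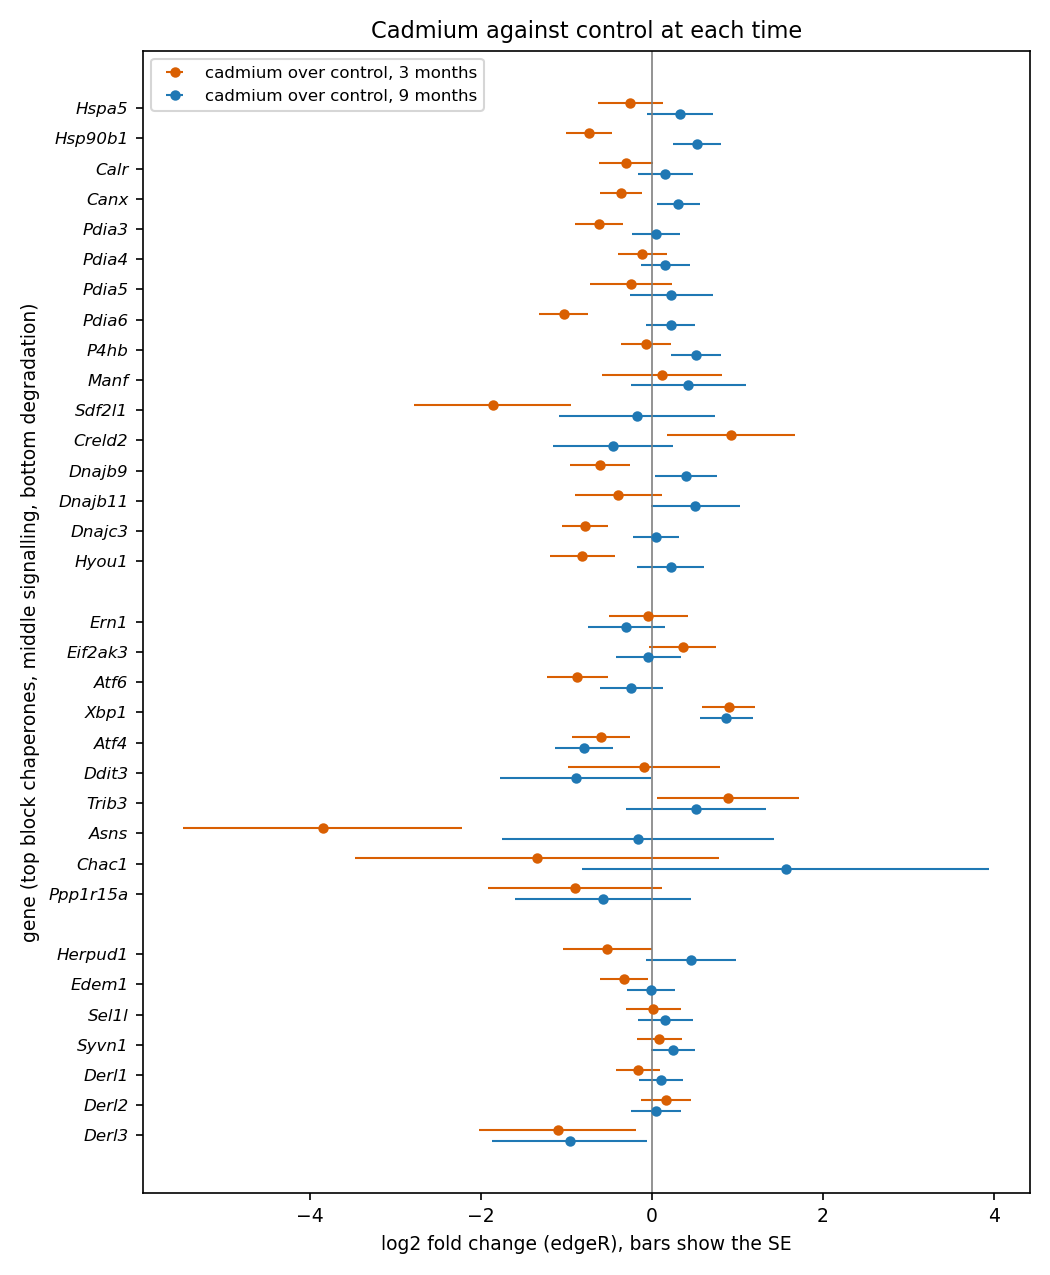
Points are edgeR log2 fold changes of exposed over control livers at 3 months (orange) and at 9 months (blue), and bars are SEs; blocks from the top are chaperones, signalling and degradation genes. In 13 of 16 chaperones the orange point is left of 0 and the blue point right of it, while Xbp1 is right of 0 at both times (0.90 and 0.87).

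The sign of the fold change thus differed between the times in most chaperones. In 13 of 16 chaperones it was below 0 at 3 months and above 0 at 9 months, as in 1 of 10 signalling genes, 2 of 7 degradation genes and 26.5% of all genes. The difference of the 2 effects (9 months minus 3 months) was above 0 in 15 of 16 chaperones, with a median of 0.67, against 48.9% and -0.03 for all genes. The lean was not particular to the chaperones. Of the 17 translocon and signal sequence genes read below, 11 changed sign in this way. The difference was above 0 in 15 of those 17 (median 0.60), and had medians of -0.01 to 0.18 in the other lists read below. For the signalling genes it was above 0 in 4 of 10, with a median of -0.11, but in 1 of 10 (median -1.13) without 3-month control 3, in 8 of 10 (median 0.31) without 3-month control 2 and in 6 of 10 (median 0.33) without 9-month control 2. No member passed the test of this difference: 0 of 33 had an adjusted p under 0.05 by edgeR (0.0% of all genes), DESeq2 or limma voom, and 2 had an unadjusted p under 0.05 (9.42% of all genes). Without 3-month control 3 the difference was above 0 in 12 of 16 chaperones, with a median of 0.37.

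Both of these members were chaperones. Hsp90b1 differed by 1.26 ± 0.39 (edgeR, adjusted p = 0.443) and Pdia6 by 1.25 ± 0.42 (edgeR, adjusted p = 0.453). Next came Dnajc3 at 0.83 ± 0.39 (adjusted p = 0.531), Dnajb9 (ERdj4, a BiP co-chaperone) at 1.01 ± 0.51 (adjusted p = 0.559) and Canx at 0.68 ± 0.35 (adjusted p = 0.568), all by edgeR. Only Hsp90b1 and Canx among the 33 had all exposed libraries below the controls at 3 months and all above them at 9 months; 1.42% of all genes did.

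**Figure D4:**
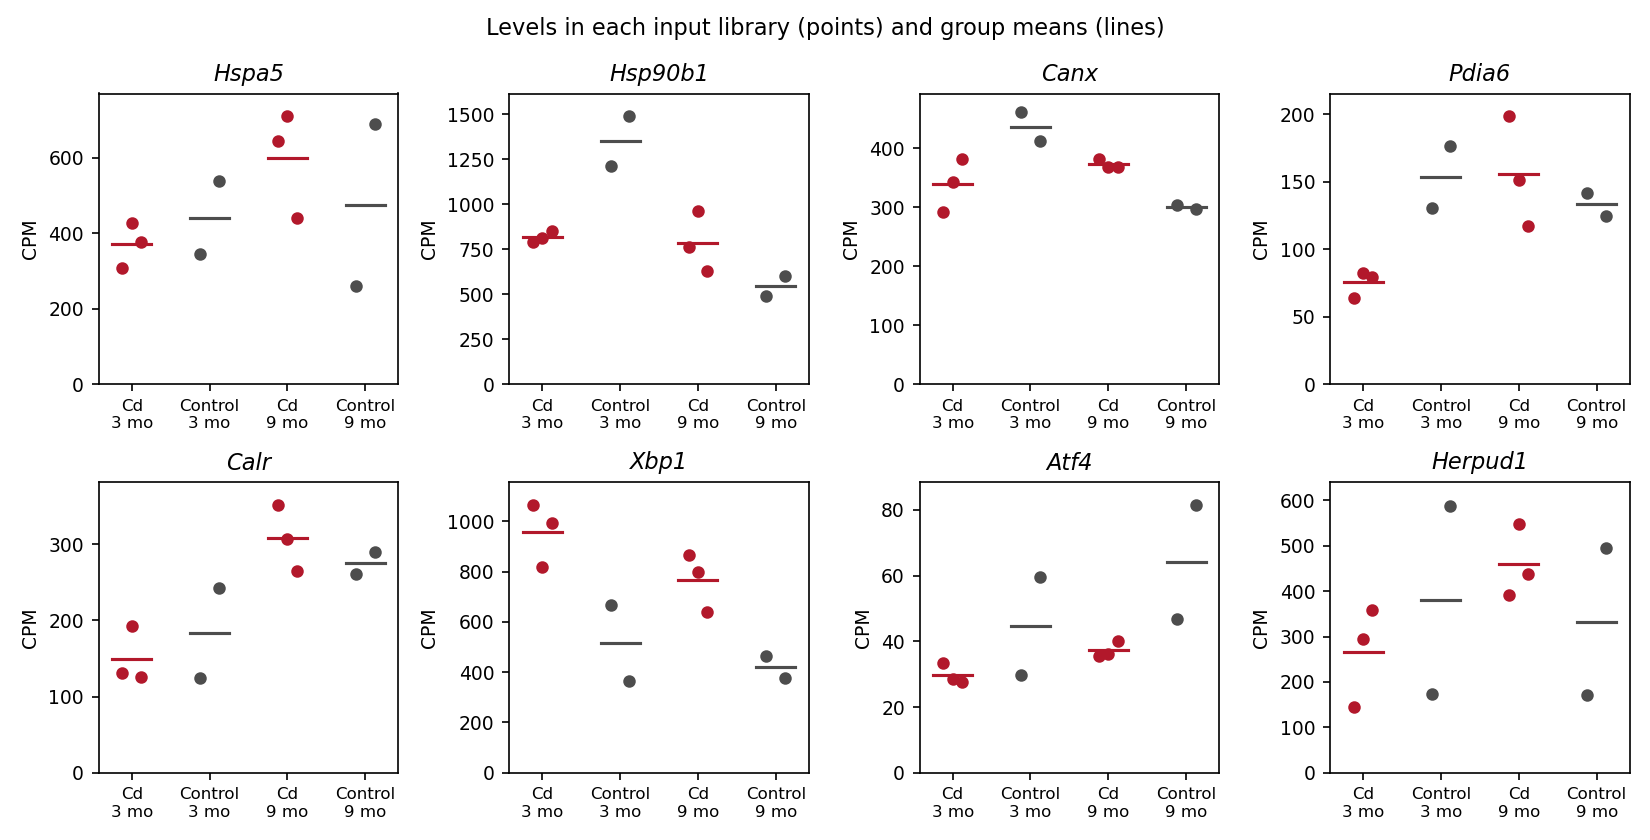
Points are CPM in each library and lines are group means, with exposed (Cd, red) left of control (grey) at each time; every axis starts at 0. For Hsp90b1 and Canx exposed livers lie below the controls at 3 months and above them at 9 months, for Xbp1 they lie above at both times, and for Hspa5 and Herpud1 the 2 controls at each time lie far apart.

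In exposed livers the chaperones were mostly higher at 9 months than at 3 months. Fold changes of 9 over 3 months in exposed livers were above 0 in 13 of 16 chaperones, with a median of 0.79, against 50.3% and 0.00 for all genes. In 10 of 16 the 9-month libraries all lay above the 3-month ones, as in 7.23% of all genes, and in 7 of 16 the unadjusted p was under 0.05 with the 9-month level higher, as in 2.5%. No member had an adjusted p under 0.05 by edgeR (0.0% of all genes), DESeq2 or limma voom. Without the 2 libraries richest in acinar RNA 13 of 16 chaperones were again above 0, with a median of 0.74. Of the neighbouring lists read below, 15 of 17 translocon and signal sequence genes were above 0 too (median 0.28). So were 18 of 24 other folding and glycan genes (median 0.17) and 16 of 21 targets of the integrated stress response (median 0.30). It was 8 of 15 for other sensors and regulators and 8 of 18 for other degradation genes.

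Pdia6 in exposed livers had 199, 151 and 117 CPM at 9 months, against 64.0, 82.8 and 79.5 CPM at 3 months, a fold change of 1.04 ± 0.26 (edgeR, adjusted p = 0.96). Calr had 352, 307 and 264 CPM at 9 months, against 131, 192 and 125 CPM at 3 months, at 1.04 ± 0.29 (edgeR, adjusted p = 0.96). All 3 libraries of the later time lay above all 3 of the earlier one in both genes. Pdia3 showed the same order at 0.89 ± 0.26, and Pdia4 (ERp72) at 0.90 ± 0.26 (both edgeR, adjusted p = 0.96). In controls Calr and Pdia4 were also higher at 9 months without overlap, at 0.59 ± 0.36 and 0.63 ± 0.32. Control groups overlapped for Pdia6 and Pdia3, at -0.21 ± 0.32 and 0.22 ± 0.31.

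Manf had 22.8, 22.3 and 17.99 CPM in exposed livers at 9 months, against 2.40, 7.64 and 3.93 CPM at 3 months. This was the widest fold among the chaperones, 4.49-fold (log2 2.17 ± 0.63, edgeR, adjusted p = 0.96). It was 2.11 without the 2 libraries richest in acinar RNA. Sdf2l1, Creld2, Dnajb11, Hspa5 and Dnajc3 completed the 10, with fold changes of 0.32 to 1.86.

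Chaperones did not all share this order. Hsp90b1 had a fold change of -0.05 ± 0.24 between the times in exposed livers, P4hb of 0.10 ± 0.26, Canx of 0.14 ± 0.22, Dnajb9 of -0.34 ± 0.32 and Pdia5 of -0.12 ± 0.44, and their groups overlapped, as did those of Hyou1.

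In controls, 1 member passed the test between the times, Hsp90b1, which was lower at 9 months. Its level was 489 and 599.9 CPM at 9 months, against 1211 and 1488 CPM at 3 months, 2.48-fold lower (log2 -1.31 ± 0.30, edgeR, adjusted p = 0.0492). Among all genes 1.89% passed in either direction, and 0.96% were lower. The adjusted p is near the threshold, and the call was lost when any 1 of the 8 libraries other than the 3-month controls was left out (edgeR, adjusted p of 0.0644 to 0.303). It was also lost under limma voom, under a sum of all transcripts of a gene, with a replicate block, with the control groups fitted alone, and without the 2 libraries richest in acinar RNA. At an unadjusted p under 0.05 there were 4 members, against 20.1% of all genes.

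The 16 chaperones in controls lay in both directions, 8 above and 8 below 0, with a median of -0.06, against 52.1% above 0 and a median of 0.06 for all genes. Without 3-month control 3 it was 10 above 0 (median 0.35), without 3-month control 2 it was 4 (median -0.43), and without 9-month control 2 it was 6 (median -0.25). In 3 chaperones, Calr, Pdia4 and Creld2, both 9-month controls lay above both 3-month controls (26.1% of all genes). In 6 chaperones both lay below (20.0%). Dnajb9 had 61.3 and 81.2 CPM at 9 months, against 205 and 157 CPM at 3 months, at -1.34 ± 0.40 (edgeR, adjusted p = 0.0831). Creld2 had 5.53 and 20.3 CPM at 9 months, against 1.054 and 3.52 CPM at 3 months, at 2.46 ± 0.83 (edgeR, adjusted p = 0.122). Manf had 4.42 and 26.5 CPM at 9 months, against 5.27 and 3.401 CPM at 3 months. Its fold change of 1.86 ± 0.77 (edgeR, adjusted p = 0.197) was 0.08 without 9-month control 2, and that of Creld2 was 1.27. Canx was at -0.54 ± 0.27 (edgeR, adjusted p = 0.285), with no overlap.

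Grouped by promoter element, the 11 members with ERSE or ERSE-II had a median fold change of -0.39 at 3 months and 0.25 at 9 months. The 18 members with a promoter and neither element had medians of -0.17 and 0.05. In exposed livers the medians of 9 over 3 months were 0.79 with an element and 0.08 without. The element follows the class (8 of the 11 are chaperones), and the 2 sets were not tested against each other.

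Of the 10 signalling genes, 3 had a fold change above 0 at 3 months and 3 at 9 months. Xbp1, the transcription factor whose mRNA IRE1 splices, was the member with the smallest p when the effect was averaged over both times. It had 1066.5, 817 and 993 CPM in exposed livers at 3 months, against 666 and 364 CPM in controls. Levels at 9 months were 864, 801 and 639.8 CPM in exposed livers, against 463 and 378 CPM in controls. Exposed livers were above the controls of their own time at both times, as in 1.37% of all genes, and the lowest exposed library (639.8 CPM) lay below the highest control (666 CPM) when times were pooled.

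Fold changes of Xbp1 were 0.90 ± 0.31 at 3 months (edgeR, adjusted p = 0.235) and 0.87 ± 0.31 at 9 months (edgeR, adjusted p = 1). The average over both times was 0.88 ± 0.22, 1.85-fold, with an unadjusted p of 0.00143 and an adjusted p of 0.246 by edgeR. Averaged over both times 0 of 33 members passed by edgeR, against 0.064% of all genes. DESeq2 called Xbp1 (adjusted p = 0.0171) among 112 of all genes, and limma voom called 0 members and 12 of all genes. Unadjusted, 2 members had p under 0.05, Xbp1 and Atf4, against 8.35% of all genes. Without 3-month control 2 the edgeR call for Xbp1 was made (log2 1.14, adjusted p = 0.00501), in a fit that called 391 of all genes, against 9 with it. Without 3-month control 3 the average was 0.70 (adjusted p = 0.0653) and the 3-month value 0.53 (adjusted p = 0.279). Without the 2 libraries richest in acinar RNA the average was 0.78 (adjusted p = 1).

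The 2 deposited Xbp1 transcripts did not move in proportion. Variant 1 is the one used above. Variant 2 had 212, 209 and 229 CPM in exposed livers at 3 months, against 203 and 120.0 CPM in controls, and 151, 188 and 171 CPM in exposed livers at 9 months, against 148 and 135 CPM in controls. As a percent of variant 1 it was 19.8, 25.6 and 23.1% in exposed livers at 3 months, against 30.5 and 33.1% in controls. At 9 months it was 17.5, 23.5 and 26.7% in exposed livers, against 32.0 and 35.6% in controls.

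All 6 exposed libraries thus lay below all 4 controls. This was so for 5 of 958 genes (0.522%) with a second transcript of at least 500 reads and 10 to 90% of the first. The comparison was chosen after its values were seen and has no test. The sources used here do not state which variant is the spliced form, nor how reads shared by both variants were counted.

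**Figure D5:**
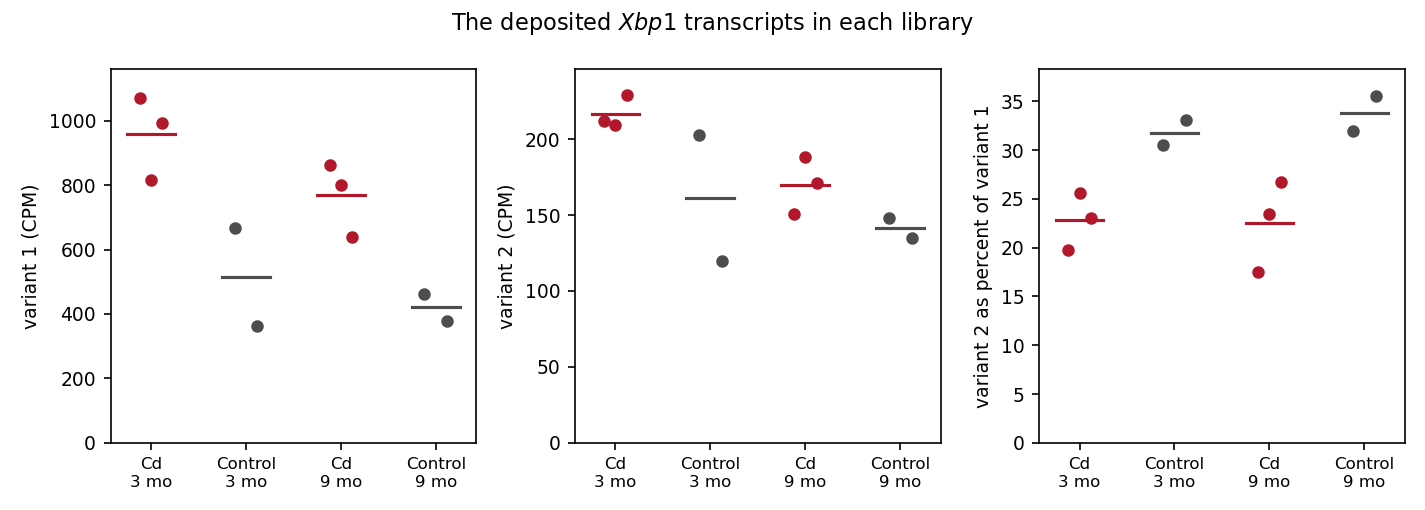
Left and middle panels give the CPM of Xbp1 variants 1 and 2 in each library and the right panel variant 2 as a percent of variant 1; lines are group means, with exposed (Cd, red) left of control (grey) at each time. In the right panel the 6 exposed libraries lie between 17.5 and 26.7% and the 4 controls between 30.5 and 35.6%.

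Atf4, the effector of PERK and of the wider integrated stress response, was the other member with an unadjusted p under 0.05 in that average. It had 33.3, 28.5 and 27.7 CPM in exposed livers at 3 months, against 29.7 and 59.7 CPM in controls. At 9 months it had 35.6, 36.0 and 40.1 CPM in exposed livers, against 46.9 and 81.6 CPM in controls. Groups overlapped at 3 months, and at 9 months all exposed livers lay below both controls, as in 11.8% of all genes. The fold changes were -0.59 ± 0.34 (edgeR, adjusted p = 0.444) and -0.79 ± 0.34 (edgeR, adjusted p = 1), and the average was -0.69 ± 0.24 (edgeR, adjusted p = 0.494). Without 3-month control 3 the 3-month value was 0.01, and without 9-month control 2 the 9-month value was -0.34. Both of these controls had raised acinar RNA. Exposed 9-month liver 1, with 2050 CPM of acinar RNA, had 35.6 CPM of Atf4, the lowest of its group. The part of acinar RNA in the Atf4 values was not tested.

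Among the sensors, Atf6 had 48.6, 52.2 and 50.1 CPM in exposed livers at 3 months, against 47.4 and 136 CPM in controls. Only control 3 was high, and the fold change of -0.87 ± 0.36 (edgeR, adjusted p = 0.305) was 0.09 without it. Its 9-month value was -0.24 ± 0.37. Ern1 had fold changes of -0.04 ± 0.46 and -0.30 ± 0.45 at 3 and 9 months, and Eif2ak3 of 0.36 ± 0.39 and -0.04 ± 0.38, all with overlapping groups.

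Targets of ATF4 were few in reads and scattered. Asns (asparagine synthetase) had 0.0, 1.501 and 1.44 CPM in exposed livers at 3 months, against 0.0 and 28.8 CPM in controls. The single high library was control 3, and the fold change of -3.85 ± 1.63 (edgeR, adjusted p = 0.306) rests on it. Chac1, which degrades glutathione, was also highest there, at 6.21 CPM, and was at 0 in 4 libraries. Ppp1r15a, the phosphatase subunit that reverses PERK's action, ranged from 0.628 to 6.68 CPM, with its top again in control 3.

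Trib3, a pseudokinase induced by ATF4 and CHOP, had 7.05, 8.87 and 7.33 CPM in exposed livers at 3 months, against 1.265 and 6.92 CPM in controls. Its groups were apart by a narrow margin, with exposed livers higher as in Xbp1 and in 13.9% of all genes. Ddit3, the transcription factor CHOP, had 4.65, 5.87 and 1.83 CPM in exposed livers at 3 months, against 3.58 and 5.16 CPM in controls. At 9 months it had 5.34, 0.790 and 4.14 CPM in exposed livers, against 5.53 and 7.16 CPM in controls. Its fold changes were -0.09 ± 0.89 and -0.89 ± 0.88, and with counts summed over its 4 transcripts the 3-month value was 0.88. In exposed liver 2 at 3 months each of these 4 transcripts held 41 to 43 reads, so the sum may count the same reads more than once. Neither direction can be read from so few reads.

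As a class the 10 signalling genes had a median fold change of -0.34 at 3 months and -0.20 at 9 months. Without 3-month control 3 all 10 were above 0 at 3 months, with a median of 0.70. That control held the highest level of 4 of the 10 genes, and control 2 the lowest of 3. In Asns and Chac1 control 2 was also at 0, tied for the lowest level with other libraries.

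The 7 degradation genes lay closest to 0. Their median fold changes were -0.16 at 3 months and 0.11 at 9 months, and none of the 7 had an unadjusted p under 0.05 at either time. Herpud1, which helps assemble the HRD1 degradation complex, had 144, 294 and 359 CPM in exposed livers at 3 months, against 173 and 588 CPM in controls. Levels at 9 months were 391, 549 and 437 CPM in exposed livers, against 171 and 495 CPM in controls. The 2 controls of each time differed from each other by more than the groups did, and the fold changes were -0.52 ± 0.52 (edgeR, adjusted p = 0.689) and 0.46 ± 0.53 (edgeR, adjusted p = 1).

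Syvn1 (the ubiquitin ligase HRD1), its partner Sel1l, the mannosidase-like Edem1, and Derl1 and Derl2 of the retrotranslocation machinery had fold changes between -0.32 and 0.25 at both times. Their groups overlapped at both times. Derl3, a stress-induced derlin, was at a lower level, with 5.34, 2.84 and 3.31 CPM in exposed livers at 9 months, against 8.85 and 6.10 CPM in controls. It was the only degradation gene apart at that time, at -0.96 ± 0.91 (edgeR, adjusted p = 1).

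Neighbouring pathways were read from 5 further lists, with 95 genes tested. By edgeR 0 of the 95 passed at 3 months, where 18 had an unadjusted p under 0.05 (14.5% of all genes did), and 0 at 9 months, where 3 did (2.25% of all genes). Both counts are near those shares. DESeq2 called 3 at 3 months (Aup1, Cth and Shmt2), where it called 465 of all genes, and 0 at 9 months, and limma voom called 0 at both. The 17 genes of the translocon and of signal sequence handling leaned like the chaperones, with 14 below 0 at 3 months (median -0.54) and 13 above 0 at 9 months (median 0.22). Among them Serp1, a translocon-associated stress protein, averaged 319.9 ± 57.3 CPM in exposed livers (SD, n = 3) and 584 ± 100.5 CPM in controls (SD, n = 2) at 3 months, at -0.87 ± 0.29 (edgeR, adjusted p = 0.21). Ssr3, a translocon subunit, was at -0.00 ± 0.25 there and at 0.28 ± 0.25 at 9 months.

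Of the 21 tested targets of the integrated stress response, 15 were below 0 at 3 months (median -0.22) and 12 at 9 months (median -0.13). Cth, which makes cysteine, had 83.2, 82.0 and 87.7 CPM in exposed livers at 3 months, against 129 and 741 CPM in controls, again with 3-month control 3 far above the rest. Atf5 had 153, 50.6 and 171 CPM in exposed livers at 9 months, against 245 and 346 CPM in controls, without overlap (log2 -1.24 ± 0.45, edgeR, adjusted p = 1). In the remaining lists, medians at 3 and 9 months were 0.03 and 0.09 for 15 other sensors and regulators. They were -0.13 and 0.07 for 24 other folding and glycan genes, and -0.02 and -0.00 for 18 other degradation genes. Of the 24 folding and glycan genes, 16 were below 0 at 3 months (49.3% of all genes) and 16 above 0 at 9 months (50.7%). Both held in 10 of the 24, as in 26.5% of all genes. Among the abundant genes of these lists, Creb3l3, Ppp1r15b, Ganab, Lman1 and Vcp had fold changes between -0.15 and 0.49 at both times. Ganab and Lman1 were higher in exposed livers at 3 months without overlap, as in 13.9% of all genes.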

How the data were processed

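The deposited table holds unnormalised read counts per RefSeq transcript and TPM for 10 input libraries, per the file headers. TPM, scaled to transcript length by the authors, were used only for levels between genes. The submitters' processing notes name bcl2fastq, TopHat2 2.0.13, MACS2 2.1.0.20151222 and builds hg19, mm10 and rn6, without roles; no source used here names the read counter or its strand setting. Another 12 columns, of 6 libraries, match no sample and were not used. For each gene the transcript most counted over the 10 libraries was kept. How reads shared between isoforms were counted is not stated. Isoforms of a gene often held nearly equal counts, such as 2769 and 2769 reads over the 10 libraries for Atf4 and 31374 and 31363 for Hspa5. Sums over transcripts were an alternative, and may count the same reads more than once.

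Groups followed exposure and time. Counts were filtered with filterByExpr (14067 of 21768 genes kept), scaled by TMM and fitted with edgeR 4.0.16 in R 4.3.3 over all 10 libraries (common dispersion 0.309, residual degrees of freedom 6, prior degrees of freedom 7.6). All tests are two-sided and used an adjusted p under 0.05. The log2 fold changes carry the SE of the fit. DESeq2 1.42.0 and limma 3.58.1 voom with library weights were alternatives, as were other filters and scaling, a replicate block, the compared groups alone, and each library left out. The fit was also run on simulated data, which held no outlying libraries like the 3-month controls and so do not bear on their effect. Python 3.11.15 was used for tables. Fold changes were given for members past the threshold or for the 5 with the smallest p in each comparison, and for Hspa5, Hsp90b1, Xbp1, Atf4, Ddit3 and Herpud1 in both cadmium comparisons; of each other pathway list the 2 most abundant genes were named, except 1 gene that is not reported here; other values were named after being seen. The members, classes and lists were chosen with earlier results of these data known. Cell type lists covered pancreatic acinar cells, hepatocytes, Kupffer cells, plasma and B cells, endothelium, cholangiocytes, neutrophils and stellate cells. Promoter windows are RefSeq, GRCm38.p6; 4 members had none in that table.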

Additional observations from a re-analysis of the deposited data

Results flagged for a closer look

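In Hsp90b1 all exposed libraries lay below the controls at 3 months and above them at 9 months. Exposed livers averaged 816 CPM at 3 months and 786 CPM at 9 months, and controls 1350 and 544 CPM, so that the controls moved more. The 3-month controls stood apart from the rest, with median correlations of 0.809 and 0.827 with the other libraries. The difference of the 2 cadmium effects (9 months minus 3 months) was 1.26 on the log2 scale, and the test of that difference gave an adjusted p of 0.443 (edgeR).

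In Canx the exposed libraries were ordered the same way at each time. Exposed livers averaged 339.5 CPM at 3 months and 373 CPM at 9 months, and controls 437 and 300 CPM. The difference of its effects was 0.68, with an adjusted p of 0.568 (edgeR). This double order occurred in 1.42% of all genes tested.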

How the results depend on the processing

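Of 336 class medians recomputed under other settings, 310 kept their sign. Of 693 single-gene fold changes, 684 kept their direction. These genes were mostly those with the smallest p in each comparison, and the settings share libraries. A kept direction is therefore no independent support. The single-gene exception outside the leave-one-out settings was Ddit3 at 3 months, at 0.88 with counts summed over transcripts. With 1 library left out in turn, the fold change at 3 months ranged from -1.43 to 0.09 for Atf6, from -0.53 to 0.11 for Hspa5, from -1.0 to 0.01 for Atf4, from -0.44 to 0.26 for Ddit3 and from -1.14 to 0.62 for Herpud1. At 9 months it ranged from -0.19 to 1.19 for Hspa5 and from -0.10 to 1.41 for Herpud1. All upper ends at 3 months except that of Ddit3 came without control 3, and both lower ends at 9 months without control 1; the cause was not tested. The number of members called at 3 months was 1 instead of 0 with DESeq2 and with no filter on low counts, and 0 to 5 with 1 library left out, the 5 (Asns, Atf6, Hyou1, Pdia6 and Xbp1) without control 2. Averaged over both times it was 1 with DESeq2 and with no filter, and 0 to 3 with 1 library left out. For 9 against 3 months in exposed livers it was 1 with no filter. In controls, where 1 member was called between the times, it was 3 with DESeq2, 2 with no filter, 2 at an adjusted p under 0.1, 0 to 4 with 1 library left out, and 0 with sums over transcripts, limma voom, the compared groups alone, or without the 2 libraries richest in acinar RNA. With a replicate block it was 0 too, and Hsp90b1 was at -1.29; deviations of same-numbered libraries correlated between -0.12 and 0.057, so the labels' numbers were not taken as pairs, and the block changed no other count of members called. The number of all genes called moved with the tool, the filter and the library left out. At 3 months it was 7, against 465 with DESeq2, 2 with limma voom, 502 with no filter and 3 to 1247 with 1 library left out. Averaged over both times it was 9, against 112 with DESeq2, 243 with no filter and 3 to 391 with 1 library left out. In controls it was 266, against 1220 with DESeq2, 0 with limma voom, 1 with the replicate block, 1073 with no filter and 1 to 2339 with 1 library left out. Groups of 2 and 3 libraries limit the precision of every value.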

Other observations

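Markers of other cell types were summed per library. Kupffer cell genes (10) ranged from 230.0 to 396 CPM in exposed livers at 3 months, against 213 to 253 CPM in controls, and from 343 to 515 CPM in exposed livers at 9 months, against 315 CPM at most in controls. The 9-month groups did not overlap, with exposed livers higher, an order that 10.3% of all single genes showed. Endothelial genes (6) ranged from 271 to 301 CPM in exposed livers at 3 months, against 296 to 319 CPM in controls, and from 285 to 322 CPM at 9 months, against 246 to 298 CPM in controls. Stellate genes (6) ranged from 397 to 461 CPM in exposed livers at 3 months, against 472 to 498 CPM in controls. Exposed livers were thus lower without overlap, an order that 11.9% of all single genes showed at that time. They ranged from 379 to 490.0 CPM in exposed livers at 9 months, against 393 to 464 CPM in controls. Plasma and B cell genes summed to at most 19.0 CPM, cholangiocyte genes to at most 61.1 CPM and neutrophil genes to at most 6.9 CPM in any library. Their part in the levels of the ER genes was not tested.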
